A study of Bos taurus with 12 samples.

Results

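The miR-183 cluster (miR-182, miR-96 and miR-183) is a group of 3 miRNAs that are cut from a common transcript, and 2 of the 3 were followed here through mammary biopsies of 12 Chinese Holstein cows. Its members were taken by name, bta-miR-182, bta-miR-183 and bta-miR-96. miR-182 and miR-183 each had 1 precursor entry among the 388 mature miRNAs used, and miR-96 was not analysed here. Libraries came from 4 groups of 3 cows. HP and LP cows were in lactation, at its peak, and had a high or a low milk protein percentage, respectively. HD and LD cows had a high or a low milk protein percentage as well but were in the non-lactating period, about a month before the expected calving. Each library comes from a different multiparous, healthy cow, so the stages were not compared within a cow. The protein class rests on records of the earlier lactation. Group names follow the labels of the libraries, which were not checked by any measurement here, and every direction below rests on those names.

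The members of the cluster are processed from 1 polycistronic transcript, as is typical of clustered miRNAs, and the cluster is conserved among vertebrates. It is best known from sensory cells of the eye and inner ear, where seed mutations of miR-96 cause hearing loss. In breast cancer cells miR-96 and miR-182, which have closely related seeds, repress the transcription factor FOXO1, and miR-183 has a different seed and other targets. In the RefSeq gene table of the ARS-UCD2.0 assembly the bovine genes lie in the order MIR182, MIR96 and MIR183. Their nearest named protein-coding neighbours are NRF1, on the MIR182 side, and UBE2H, beyond MIR183. The analysed values carry no coordinates, and the sequences of the miRNAs were not used here.

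Expression is given as TPM, the authors' name for reads of a miRNA scaled to a common total over all miRNAs in every library, elsewhere called RPM, with no correction for length. The reads assigned to miRNA entries were inferred, since read counts were not used. In each library all values above 0 came within 0.15 reads of whole multiples of a common step, taken as the value of 1 read. Divided by this step, the total over all entries gave 6026620 to 13373813 miRNA reads per library in lactation. In the non-lactating period it gave 11047232 to 23577193. A miRNA with several precursor entries may count more than once, and these totals are not sequencing depths. The paper gives nearly equal numbers of clean reads for all libraries. Epithelium was represented in every library, since the 6 epithelial miRNAs of the miR-200 family and miR-205 summed to between 14978 and 44371 TPM. Its origin was not checked here, and the paper names the lack of visual inspection of the biopsies as a weakness. All values are from bulk tissue, where fewer cells of a type and less miRNA per cell cannot be told apart.

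miR-182 was the abundant member, and it was lower in lactation. In HP it had 1686, 3136 and 3764 TPM in replicates 1, 2 and 3. In LP the corresponding values were 3166, 1581 and 2293 TPM. The 3 HD libraries held 7427, 9859 and 8267 TPM, and the 3 LD libraries 8036, 3657 and 9579 TPM. Thus 5 of the 6 non-lactating libraries lay above every lactation library, whereas LD replicate 2 lay just under HP replicate 3. Group means ran from 2347 ± 794 TPM in LP and 2862 ± 1066 TPM in HP to 7091 ± 3072 TPM in LD and 8518 ± 1235 TPM in HD (SD, n = 3). LP and HP, neighbours in this order, overlapped, and so did LD and HD. HP and LD overlapped by 1 library each and differ in both stage and phenotype, so they were not compared further. By mean TPM, miR-182 ranked 38 of 388 miRNAs in lactation, against 23 of 388 outside it.

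miR-183 followed the same course at a much lower level. It had 67.7, 89.3 and 115.7 TPM in HP, and 132 (replicate 1), 65.2 and 80.9 TPM in LP. In HD it had 316, 452 and 405 TPM, and in LD 334, 151 and 684 TPM. All 6 non-lactating libraries lay above all 6 lactation libraries. The means of HP and LP were nearly equal, 90.9 ± 24.0 and 92.7 ± 35.0 TPM, as were those of LD and HD, 389.6 ± 271.1 and 391 ± 69.1 TPM (SD, n = 3). Neither pair of neighbours differed beyond its spread, and LD had the widest range of the 4 groups. miR-183 ranked 129 in lactation, against 91 outside it. Its fewest reads, an inferred 408, lay behind the 67.7 TPM of HP replicate 1, for which the exact 95% Poisson interval is 61.3 to 74.6 TPM. That interval rests on the inferred value of 1 read and covers counting error only, and it is narrower than the range of the HP libraries.

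**Figure D1:**
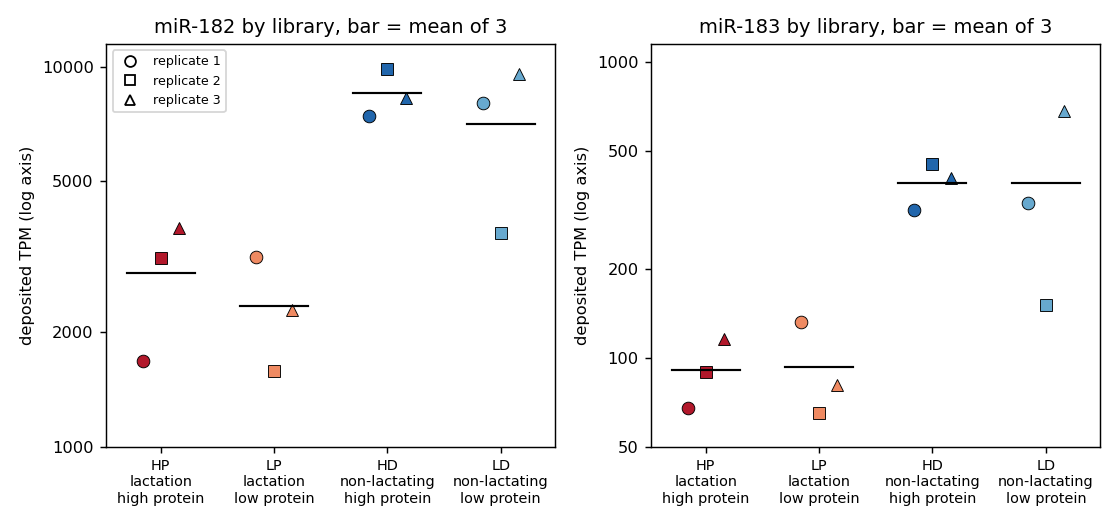
Deposited TPM of miR-182 (left) and miR-183 (right) on log axes in the 12 libraries, by group, with a symbol for each replicate and a bar at the mean of 3. The non-lactating libraries lie higher, apart from LD replicate 2 for miR-182, which has 3657 TPM against 3764 TPM in HP replicate 3.

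Between the stages both members passed the test and were lower in lactation. For the fit, each TPM value was first divided by the size factor of its library, a median of ratios over miRNAs, and log2 was taken after adding 1. On this scale miR-182 was 2.79-fold lower in lactation (95% interval 1.71 to 4.55), a log2 fold change of -1.48 with an SE of 0.32 and an adjusted p of 0.00306 in limma. miR-183 was 3.68-fold lower (95% interval 2.06 to 6.59), a log2 fold change of -1.88 with an SE of 0.39 and an adjusted p of 0.00207. Stage differences were common in these libraries, with 44.3% of the 388 miRNAs called and 22.2% called lower in lactation. The fold changes of miR-183 and miR-182 were the 11th and 20th lowest among the 388. After size factors the libraries of the stages did not overlap for either member (exact permutation test over libraries, two-sided p = 0.00216; 6 against 6 allow no smaller value). Of all miRNAs, 21.9% did not overlap between the stages, and 10.3% of all miRNAs did not overlap and were lower in lactation. For miR-182 on deposited TPM, where LD replicate 2 overlaps, the exact p was 0.00433. The size factors were highest in replicate 1 of HD and of LD, at 1.5 each, and lowest, at 0.764 and 0.773, in LD replicates 2 and 3, so the order within the non-lactating libraries depends on the scaling.

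The inferred number of miRNA reads and the levels of some cell-type miRNAs also differed between the stages. The lactation libraries had a median of 10732360 inferred miRNA reads and the non-lactating libraries one of 21207957. Among 5 leukocyte miRNAs, miR-142-5p and miR-155 were called lower in lactation and 0 higher, where 22.2% of all miRNAs were called lower. The other members, miR-142-3p (log2 fold change -0.48), miR-223 (0.13) and miR-150 (0.34), were not called. The leukocyte list summed to 5146 to 8911 TPM in lactation and 8262 to 20486 TPM in the non-lactating period. Of 4 miRNAs of stromal cells, miR-199a-3p and miR-214 were called lower in lactation. miR-199a-5p (log2 fold change 0.42) and miR-199b (-0.06) were not called. The stromal list summed to 7808 to 15324 TPM in lactation and 8966 to 24230 TPM in the non-lactating period. Both miR-126 arms, markers of endothelium, were called higher in lactation, as were 22.2% of all miRNAs. The arms summed to 10665 to 16528 TPM in lactation and 4676 to 10738 TPM in the non-lactating period. The 3 erythroid miRNAs and the 4 muscle miRNAs that were measured held 0 miRNAs called between the stages by limma, although 1 library stood out. LD replicate 2, the non-lactating library with the lowest miR-182 and miR-183, had the highest sums of erythroid miRNAs (6127 TPM) and of muscle miRNAs (224598 TPM, nearly all of it miR-143). Of the neuronal list only miR-9-5p was measured, at 4 to 14 TPM in lactation and 19 to 35 TPM in the non-lactating period, and it was called lower in lactation (log2 fold change -1.39, SE 0.26, limma adjusted p = 0.00103). The part of these cell types in the levels of the cluster was not tested.

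Within the phenotypes the stage difference had a similar size. Among high protein cows, miR-182 was 2.68-fold lower in HP than in HD (95% interval 1.52 to 4.75; limma adjusted p = 0.0186) and miR-183 was 3.72-fold lower (95% interval 2.15 to 6.44; limma adjusted p = 0.00537). This comparison called 30.2% of all miRNAs, and 16% in the direction of the cluster. HP and HD libraries did not overlap for either member after size factors, nor for 46.9% of all miRNAs. For miR-182 the adjusted p rose to 0.0814 without HD replicate 2, 0.0558 without HD replicate 3 and 0.0517 without HP replicate 2. Among low protein cows neither member passed the test, with log2 fold changes of LP over LD of -1.53 (SE 0.48, limma adjusted p = 0.0722) for miR-182 and -1.85 (SE 0.61, limma adjusted p = 0.0775) for miR-183. In this comparison 13.4% of all miRNAs passed, and 5.15% in the direction of the cluster. After size factors, where 36.1% of miRNAs did not overlap, all 3 LP libraries lay below all 3 LD libraries for both members, from 1389 to 3934 against 4789 to 12391 normalized TPM of miR-182, and from 57.3 to 164 against 198 to 885 normalized TPM of miR-183. Leaving out single libraries gave log2 fold changes of -1.88 to -1.10 for miR-182 and of -2.25 to -1.17 for miR-183, the smallest in size each without LD replicate 3, and limma adjusted p-values between 0.0523 and 0.249. With the spread of all 12 libraries in the fit both members passed in low protein cows, with limma adjusted p-values of 0.0357 and 0.0334. These comparisons share their libraries with that between the stages.

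**Figure D2:**
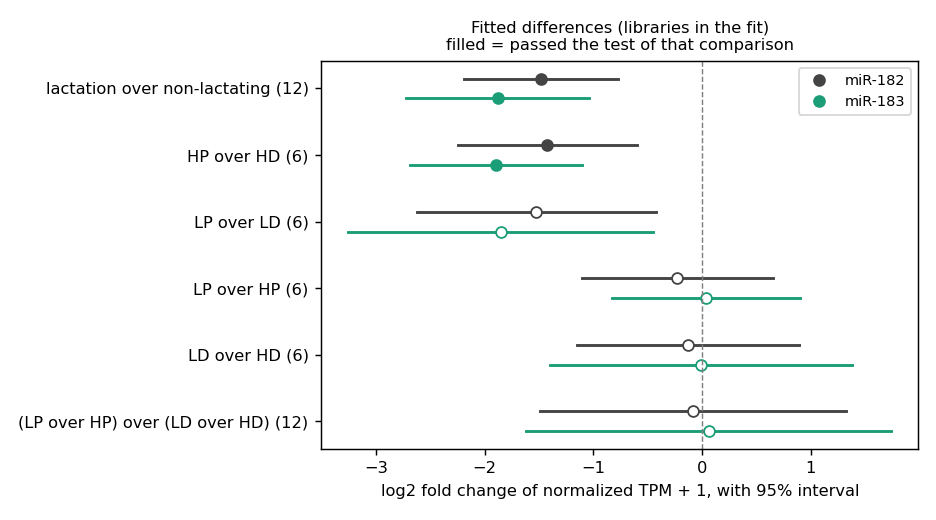
Fitted log2 fold changes of miR-182 and miR-183 with 95% intervals in each comparison, where the number in brackets is the libraries in the fit and filled points passed the test. The 3 stage differences lie between -1.42 and -1.89, and the intervals of the phenotype differences all include 0.

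Between high and low milk protein cows no difference in either member was detected. In lactation the log2 fold change of LP over HP was -0.23 for miR-182 (SE 0.39, 95% interval -1.11 to 0.65, limma adjusted p = 0.864) and 0.03 for miR-183 (SE 0.39, 95% interval -0.83 to 0.90, limma adjusted p = 0.984). The DE rule, an unadjusted p under 0.05 with an absolute log2 fold change over 0.8, held for 10.1% of all miRNAs in this comparison and for neither member. Among the cell-type lists it held for 1 of 5 leukocyte, 2 of 3 erythroid and 1 of 4 muscle miRNAs, and 0 on the others. HP and LP overlapped for both members, and did not for 20.6% of all miRNAs. In the non-lactating period LD over HD gave -0.13 for miR-182 (SE 0.44, 95% interval -1.15 to 0.89, limma adjusted p = 0.994) and -0.01 for miR-183 (SE 0.59, 95% interval -1.40 to 1.37, limma adjusted p = 0.994). Here the DE rule held for 3.35% of miRNAs and again for neither member. Among the cell-type lists it held for 2 of 5 leukocyte and 1 of 2 endothelial miRNAs, and 0 on the others. HD and LD overlapped for both members, and did not for 9.54% of all miRNAs. The intervals are wide, and for miR-183 in the non-lactating period they still allow a difference of up to 2.64-fold. Leaving out single libraries moved LP over HP between -0.59 and 0.12 for miR-182 and between -0.37 and 0.35 for miR-183. It moved LD over HD between -0.57 and 0.11 for miR-182 and between -0.71 and 0.36 for miR-183, with the lowest values without LD replicate 3. Thus the sign of either difference depended on single cows. Cows of the same group differed by more than the group means did. The highest of the 3 LP libraries was 2.83-fold above the lowest for miR-182 and 2.87-fold for miR-183 after size factors, and in LD these ranges were 2.59-fold and 4.48-fold.

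Whether the phenotype difference depended on stage was tested over all 12 libraries. The difference between both log2 fold changes was -0.08 for miR-182 (SE 0.65, 95% interval -1.49 to 1.33) and 0.06 for miR-183 (SE 0.77, 95% interval -1.62 to 1.74), each with a limma adjusted p of 0.993. Without single libraries it lay between -0.46 and 0.34 for miR-182 and between -0.36 and 0.75 for miR-183, where the highest values were those without LD replicate 3. In this test 0% of the 388 miRNAs passed the adjustment, and 5.15% had an unadjusted limma p under 0.05.

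The members moved together from library to library, but not by the same amount between the stages. Their ratio within a library does not depend on the scaling between libraries. It counts reads, not molecules, since miRNAs differ in how readily they enter a library. miR-182 had 24.9, 35.1 and 32.5 reads for each read of miR-183 in HP, and 24.0, 24.3 and 28.4 in LP. In HD the ratio was 23.5, 21.8 and 20.4, and in LD it was 24.1, 24.2 and 13.999. It was higher in lactation, with a mean log2 ratio of 4.80 ± 0.23 against 4.39 ± 0.30 in the non-lactating period (SD, n = 6), a 1.33-fold difference (exact permutation test, two-sided p = 0.00866). Accordingly, miR-183 was the member with the larger stage difference. Among high protein cows the groups did not overlap, with a log2 difference of 0.48 (exact two-sided p = 0.1, the smallest that 3 against 3 allow), and among low protein cows they did, with a log2 difference of 0.34 (p = 0.4 by the same exact test). Leaving out LD replicate 3, the library with the lowest ratio, gave a log2 difference between the stages of 0.29 (exact p = 0.0368). Within groups the ratio varied less than its parts. Its pooled standard deviation was 0.28 on the log2 scale, against 0.64 for miR-182 and 0.78 for miR-183.

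**Figure D3:**
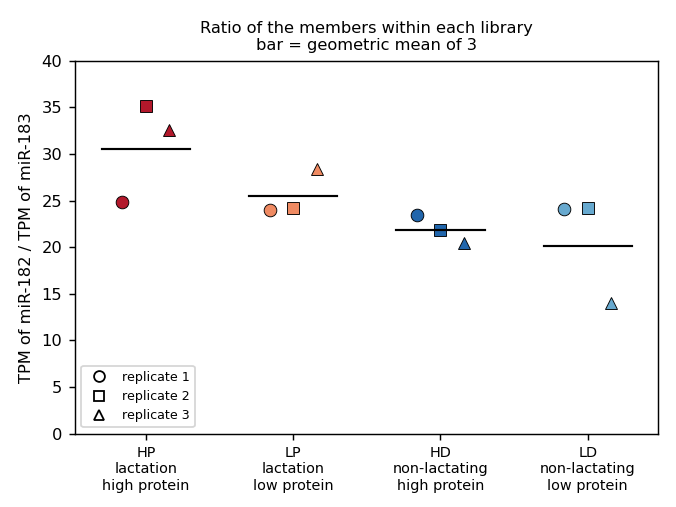
TPM of miR-182 divided by TPM of miR-183 in each library, by group, with a symbol for each replicate and a bar at the geometric mean of 3. Values lie between 20.4 and 35.1, apart from LD replicate 3 at 13.999.

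The cluster is often counted among the miRNAs of epithelial cells, and the miR-200 family and miR-205 are the usual markers of epithelium. In these libraries the cluster and the miR-200 family changed in opposite directions. All 5 miR-200 family members on the list (miR-200a, miR-200b, miR-200c, miR-141 and miR-429) were called higher in lactation, against 22.2% of all miRNAs. The log2 fold change of miR-200a was 1.298 (SE 0.24, limma adjusted p = 0.000964) and that of miR-141, the most abundant of them, was 1.28 (SE 0.40, limma adjusted p = 0.0203). For miR-205, a miRNA of basal epithelial cells, it was -0.08 (SE 0.19, limma adjusted p = 0.772). The median log2 fold change of the 6 was 0.89, where that of all miRNAs was -0.01. Within the phenotypes the calls of single members differed. In HP over HD, miR-200a (log2 fold change 0.89), miR-200b (0.009) and miR-200c (0.74) were not called (limma adjusted p = 0.104, 0.986 and 0.164). In LP over LD these were called, at 1.72, 1.31 and 1.45. The reverse held for miR-141, called in HP over HD (1.29) and not in LP over LD (1.28). As given above, the dependence on stage passed for no miRNA.

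The cluster was also set against the summed TPM of these 6 miRNAs in the same library. This ratio combines the differences already given, and is a description with no test of its own. miR-182 came to 4.32%, 9.14% and 10.5% of that sum in HP and to 7.14%, 4.58% and 5.48% in LP. It came to 19.2%, 47.4% and 31.0% in HD and to 30.6%, 24.4% and 34.3% in LD. The lowest non-lactating library was thus above the highest lactation library, and the geometric mean of the ratio was 4.62-fold lower in lactation. miR-183 made up 0.173% to 0.323% of the sum in lactation and 0.815% to 2.45% in the non-lactating period, a 6.14-fold difference in geometric means. LD replicate 2 had the lowest epithelial sum of all libraries (14978 TPM), and its ratios lay among those of the other non-lactating libraries. The log2 difference of the miR-182 ratio was -2.03 for HP minus HD and -2.39 for LP minus LD, without overlap in either.

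**Figure D4:**
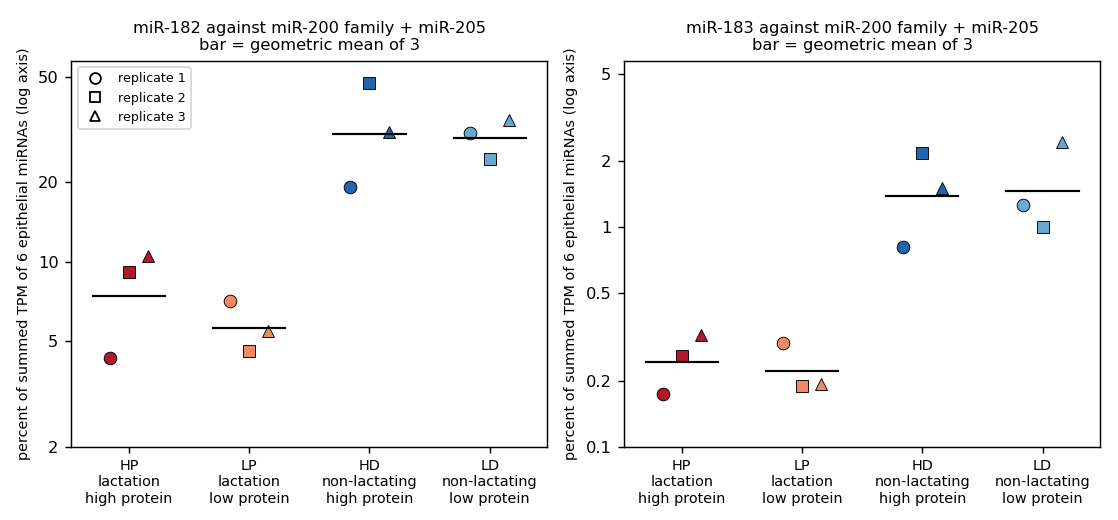
TPM of miR-182 (left) and miR-183 (right) as a percentage of the summed TPM of 6 epithelial miRNAs in the same library, on log axes, with a bar at the geometric mean of 3. In every lactation library the percentage is below that in every non-lactating library, at most 10.5% against at least 19.2% for miR-182.

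Profiles over the 12 libraries were compared as z-scores of log2(normalized TPM + 1) among the 234 miRNAs with a mean of at least 10 TPM. By the root mean square difference of these z-scores, miR-183 was the nearest miRNA to miR-182 and miR-182 the nearest to miR-183, at 0.209. Outside the cluster, the 5 nearest to the mean profile of both members were miR-25 (0.225), miR-1271 (0.370), miR-502b (0.370), miR-411a (0.406) and miR-455-3p (0.457), where the median over all was 1.32. The same 5 were nearest without size factors and without the limit on the mean. Nearness here includes the shared difference between the stages.

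Each of these 5 was called lower in lactation, as were 22.2% of all miRNAs. They were chosen in these same libraries for likeness to the members, so these calls largely follow from that choice. The values below describe them and are no separate test. miR-25, a member of the miR-106b-25 cluster in an MCM7 intron, had 2586 ± 326 TPM in lactation and 5290 ± 1047 TPM in the non-lactating period (SD, n = 6), and its log2 fold change was -0.90 (SE 0.18, adjusted p = 0.00162 in limma). miR-1271, which is grouped with miR-96 in a seed family, had 4.603 ± 2.631 and 27.19 ± 10.96 TPM (SD, n = 6), and its log2 fold change was -2.29 (SE 0.45, adjusted p = 0.00145 in limma). miR-411a, from the imprinted DLK1-DIO3 region, had 2412 ± 276 and 8047 ± 1977 TPM (SD, n = 6), and its log2 fold change was -1.60 (SE 0.21, adjusted p = 0.000133 in limma). The other two, miR-502b and miR-455-3p, had log2 fold changes of -1.15 (SE 0.30) and -1.32 (SE 0.22).

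**Figure D5:**
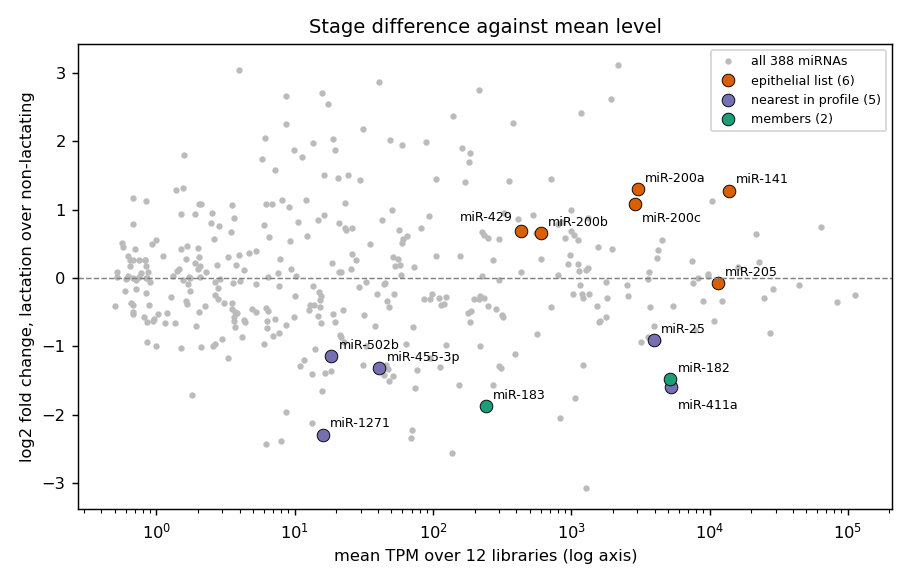
Stage difference as log2 fold change (lactation over non-lactating) against mean TPM over 12 libraries (log axis) for 388 miRNAs, with the 2 members, the 6 epithelial miRNAs and the 5 nearest profiles marked. The members lie at -1.48 and -1.88, and 5 of the 6 epithelial miRNAs lie above 0.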

How the data were processed

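The authors trimmed reads with Cutadapt 2.8 and Trimmomatic 0.36, kept 18 to 30 nt, aligned these with Bowtie 1.1.1 (1 mismatch) to the ARS-UCD1.2 build and counted miRBase 22.0 miRNAs with the miRDeep2 quantifier. They deposited RPM values, which they call TPM, for 426 miRNA and precursor entries in 12 libraries (0 columns unused). Per the labels, 3 libraries fell in each group. The highest-mean precursor was kept per miRNA (388).

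TPM was divided by median-of-ratios factors, and log2(value + 1) was fitted with limma 3.58.1 (R 4.3.3, trend, Benjamini-Hochberg over 388), which was also checked on simulated data. The authors used DESeq2 on counts, which were not used here. Fold changes on this scale understate changes of low miRNAs. The miRNA reads per library were inferred from the step of the values (tolerance 0.15 reads). In the library with the fewest such reads 3 reads give 0.498 TPM, in that with the most 0.127. Stage, HP with HD, LP with LD and the dependence on stage were called at an adjusted p under 0.05, LP over HP and LD over HD by the study's DE rule. Stage levels and the ratio of the members were tested by exact permutation in Python 3.11.15.

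Named miRNAs were the members, marker lists and the 5 nearest profiles. Members and lists were chosen with earlier results of these data known. Alternatives covered scaling, pseudocount (0.1, 5), a mean of at least 10 TPM, the trend, replicate block, joint fits and leaving out libraries.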

Additional observations from a re-analysis of the deposited data

Results flagged for a closer look

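The ratio of miR-182 to miR-183 in LD replicate 3 stood apart from those of the other non-lactating libraries. On the log2 scale its gap to the next library was 0.688 of the range of the 6 libraries, over the 95% limit of Dixon's test for 6 values (0.625). The ratio was 13.999 there and 20.4 to 24.2 in the other 5, and the same library had the highest miR-183 of all (684 TPM). Among the 10 sets of 6 libraries examined this was the 1 that passed the limit, and chance gives about 1 in 20 for a single set. The sets share values and each pools both phenotypes, and 1 pass among 10 is less rare than that.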

How the results depend on the processing

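The stage difference of both members kept its direction and passed the test in all 19 alternatives, single libraries left out included, as did the ratio of the members in its 13. Both ratios to the epithelial list kept their direction. Neither member passed in LP over HP, in LD over HD or in the dependence on stage under any alternative. The log2 fold change of miR-182 in HP over HD lay between -1.72 and -1.13 without single libraries, where 3 of these fits no longer passed. LP over LD passed only with all 12 libraries in 1 fit, at -1.52 for miR-182 and -1.85 for miR-183, which has more libraries behind its spread. The replicate number as a replicate block changed no call of a member (stage log2 fold change of miR-182 -1.48, adjusted p = 0.00339), but moved the count in LP over LD from 52 to 21. The numbers belong to different cows, and deviations of same-numbered libraries correlated between -0.39 and 0.548. Of the 6 libraries in a pair of groups, 4 correlated best with their own number in HD with LD and in HP with HD. It was 0 of 6 in HP with LP and in LP with LD. Between HD and LD the correlations were 0.548, -0.113 and 0.505 for replicates 1, 2 and 3. What same-numbered libraries share was not tested.

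The number of all miRNAs called moved more than the members did. The stage count fell from 172 to 114 with a mean of at least 10 TPM. In LP over HP it was 39, with 22 at a pseudocount of 5 and 24 without LP replicate 1. In LD over HD it was 13, with 3 without size factors, 7 at a pseudocount of 5, 8 with the mean filter, 6 to 36 without single libraries. In HP over HD it was 117 and at least 61 without single libraries. In LP over LD it was 52, with 7 without size factors, 86 with all 12 libraries and 4 to 82 without single libraries. Without size factors the share of calls higher in LD or in HP fell from 61.5% to 0% and from 47% to 37.1%, and in LP over LD it rose from 61.5% to 85.7%. With TMM factors it was 81.8% in LD over HD. The median of all miRNAs moved from 0.03 to -0.16 in LD over HD and from 0.02 to -0.15 in HP over HD without size factors. The planned count tests were not run, since read numbers were inferred from the scaled values and not taken from counts. No comparison at a matched number of miRNA reads was made.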
